A study of Mus musculus with 6 samples.

Results

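The genes described here make cholesterol, sense it and move it within the cell. The set is a list of names, with no measured value in its rule, drawn up with earlier results of these data known: 32 genes of the mevalonate and sterol pathway, of its control by SREBP2 and of sterol handling. Of these, 28 had a probe set assigned to that gene alone and are described, among 22180 genes measured in all; a gene with more than 1 probe set was read from the one with the highest mean over the 6 arrays. Idi1 shares its probe set with another gene and, like Acat2, Soat1 and Soat2, was not analysed here. The samples were livers from 6 C57BL/6J males, each hybridised to 1 Affymetrix array. In the 3 Con mice the Slug gene (symbol Snai2, a zinc finger repressor of the Snail family) was floxed (Slug f/f); the 3 SlugHKO mice, called HKO, were littermates that also carried albumin-CreERT2, a ligand-dependent Cre recombinase driven in hepatocytes by the albumin promoter. All 6 ate the same fatty diet (60% of its calories were fat) for 11 weeks, starting when they were 8 weeks old, so diet is shared by both groups. The sources used here do not say whether Con mice carried Cre or how Cre was activated.

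Cholesterol is built from acetyl-CoA through mevalonate, isoprenoid units, squalene and lanosterol. When sterols in the endoplasmic reticulum run low, the escort protein SCAP carries the membrane-bound transcription factor SREBP2 (gene Srebf2) to the Golgi, where it is cut and released to switch on nearly every enzyme of the route. When sterols are plentiful, INSIG1 and INSIG2 hold SCAP back. The liver is the main organ of whole-body cholesterol balance, and its synthesis follows feeding, diet and bile acid loss.

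HKO livers had higher mean levels of all 17 measured enzymes of cholesterol and isoprenoid synthesis, where 10696 of 22180 genes had higher means. For Sc5d and Ggps1 the difference was near 0 (0.0032 and 0.04), and its sign turned in some fits without 1 array. The median difference of the enzymes was 0.60 on the log2 scale. This difference was carried unequally by the 3 HKO mice: over the 17 enzymes, the deviation from the Con mean was 1.25 in HKO replicate 2, 0.62 in HKO replicate 3 and -0.0020 in HKO replicate 1. The sensing genes Scap and Insig2 behaved otherwise. Scap was higher by 0.48 and Insig2 lower by 0.89 in HKO, and for both genes all 3 HKO arrays stood apart from all 3 Con arrays. In limma's test across all genes with Benjamini-Hochberg adjustment, 0 of the 28 genes passed an adjusted p of 0.05, where 0.203% of all genes did (0.0902% higher and 0.113% lower). At an unadjusted p under 0.05, 12 of the 28 were called, where 11.9% of all genes were: 11 were higher in HKO and 1 was lower, against 5.31% and 6.56% of all genes. The median difference over the 28 genes was 0.43, against -0.00808 over all genes, and it was 0.14 without HKO replicate 2 and 0.68 without HKO replicate 1.

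**Figure D1:**
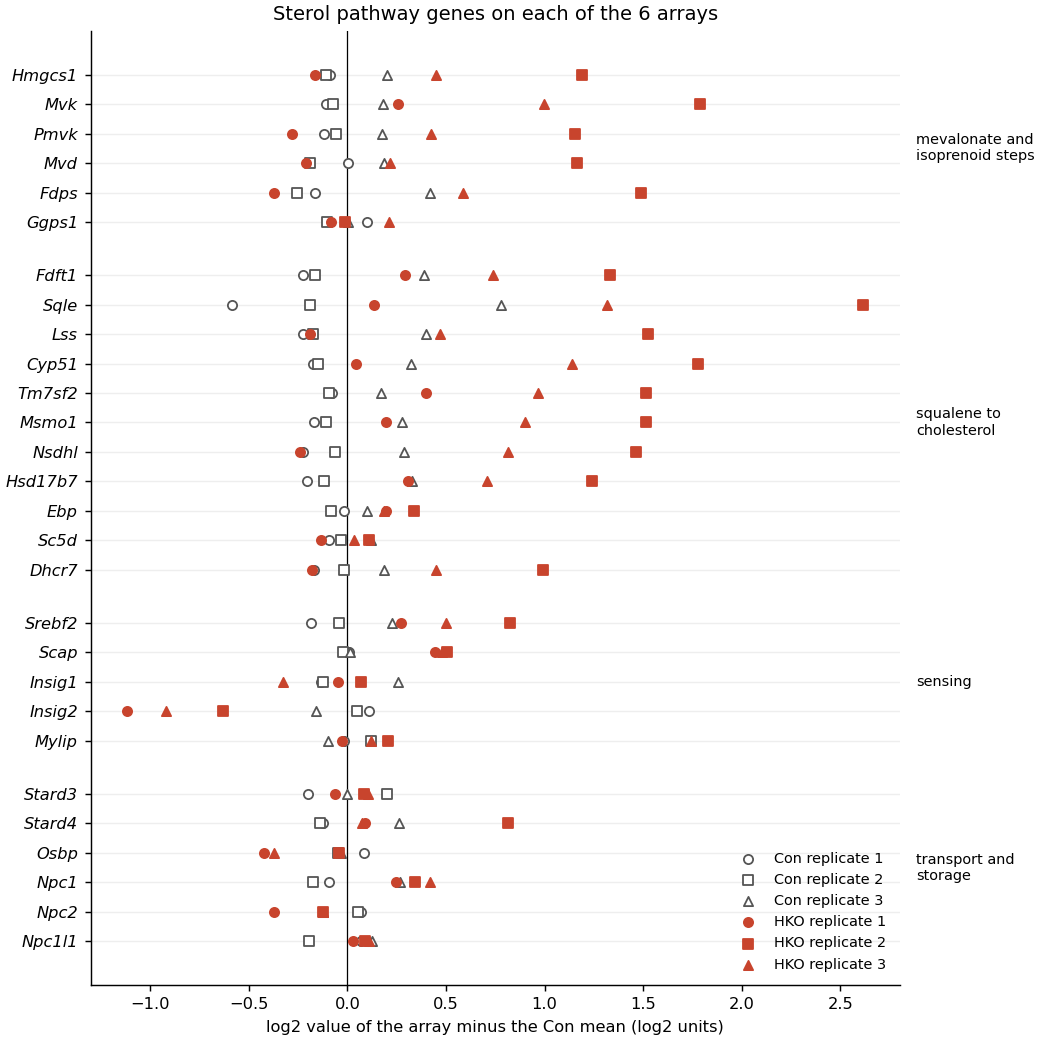
Each row is a gene and each symbol an array; the x axis gives the array's log2 value minus the Con mean of that gene, in log2 units, with open grey symbols for Con and filled red symbols for HKO. In 15 of the 17 enzymes the red square (HKO replicate 2) is the highest of the 6 arrays. For Scap and Insig2 the 3 red symbols lie apart from the grey ones, close together for Scap (HKO range 0.06) and wider for Insig2 (0.49).

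The arrays themselves were alike. Correlations over all genes ran from 0.989 to 0.992 within groups and from 0.986 to 0.988 across them, and the median over genes was 3.95 on every array. Snai2 stood at 7.74, 7.69 and 7.39 in Con and at 4.62, 5.23 and 5.69 in HKO (change -2.43 ± 0.25, limma adjusted p = 0.0145), in the direction the labels give. It missed the threshold when any of 3 arrays was left out: the adjusted p was then 0.0758 (Con replicate 1), 0.0927 (Con replicate 2) or 0.0621 (HKO replicate 2). Hepatocyte markers (Alb, Ttr, Apoa1, Serpina1c, Hnf4a and Cps1) had a mean level of 10.78 to 10.86 in Con and 10.88 to 10.98 in HKO arrays. Markers of lipid-associated macrophages had lower HKO means in 7 of the 7 measured, where 11484 of 22180 genes did. Past the threshold was 1 of them (Itgax, limma adjusted p = 0.0280), where 0.113% of all genes were lower. The arrays of the groups separated in 2, Gpnmb and Itgax (10.1% of all genes were lower without overlap), and overlapped in the others. The list mean was 5.05 to 5.20 in Con and 4.24 to 4.60 in HKO arrays. Among markers of Kupffer, stellate, sinusoidal endothelial, cholangiocyte, T and NK, B and plasma, neutrophil, adipocyte and enterocyte cells, 0 passed in each list. No batch is named in the labels.

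Promoter sequences are shown for 5 genes because enzymes of this route share promoter elements. Hmgcs1 and Cyp51 stand for the enzymes with an SD above 0.5 over the HKO arrays, and Srebf2 for their transcription factor. Scap and Insig2 had the lowest unadjusted p of the 28 genes in the limma test. Each run lies upstream of the gene's first RefSeq start site in the table used (GRCm38.p6), written 5′ to 3′ on the gene's strand. The Insig2 run has 177 bases and ends 73 bases short of that site, where the gene's annotated extent begins. Capitals mark the sterol element TCACNCCAC, the NF-Y box CCAAT, the Sp1 box GGGCGG and the E-box bound by Snail-family factors, CACCTG, each searched on both strands; no matches overlap in these runs.
Hmgcs1, chr13:119690101-119690350, plus strand: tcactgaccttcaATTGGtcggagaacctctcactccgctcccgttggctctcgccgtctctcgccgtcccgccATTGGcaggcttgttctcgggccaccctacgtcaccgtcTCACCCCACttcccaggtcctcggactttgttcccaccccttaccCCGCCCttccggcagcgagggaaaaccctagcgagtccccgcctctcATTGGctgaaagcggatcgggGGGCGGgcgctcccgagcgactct
Cyp51, chr5:4104698-4104947, minus strand: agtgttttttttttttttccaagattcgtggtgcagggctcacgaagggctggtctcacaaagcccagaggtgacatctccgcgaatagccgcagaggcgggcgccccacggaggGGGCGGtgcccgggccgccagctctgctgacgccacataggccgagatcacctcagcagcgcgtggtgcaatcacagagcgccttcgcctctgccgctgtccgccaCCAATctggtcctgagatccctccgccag
Srebf2, chr15:82147019-82147268, plus strand: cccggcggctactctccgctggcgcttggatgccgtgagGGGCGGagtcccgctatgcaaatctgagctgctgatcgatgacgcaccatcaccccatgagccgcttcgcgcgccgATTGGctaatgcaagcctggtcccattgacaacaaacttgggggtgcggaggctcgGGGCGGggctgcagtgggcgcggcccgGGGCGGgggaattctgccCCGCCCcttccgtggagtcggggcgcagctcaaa
Scap, chr9:110333038-110333287, plus strand: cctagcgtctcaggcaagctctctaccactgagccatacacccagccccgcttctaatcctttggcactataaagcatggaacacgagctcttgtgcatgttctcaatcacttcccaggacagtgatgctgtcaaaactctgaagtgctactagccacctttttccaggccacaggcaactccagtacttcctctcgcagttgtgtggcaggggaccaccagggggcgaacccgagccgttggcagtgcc
Insig2, chr1:121332663-121332839, minus strand: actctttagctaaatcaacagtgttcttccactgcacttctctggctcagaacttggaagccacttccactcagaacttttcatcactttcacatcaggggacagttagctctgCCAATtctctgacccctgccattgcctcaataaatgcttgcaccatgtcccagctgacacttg

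The run shown for Hmgcs1 held the sterol element once, the NF-Y box 3 times and the Sp1 box 2 times. Cyp51 held 1 NF-Y box and 1 Sp1 box, and Srebf2 held 1 NF-Y box and 4 Sp1 boxes. In the run shown for Scap none of the 4 motifs occurred, and in that of Insig2 only 1 NF-Y box did. Both genes have further matches in their full windows around 2 and 3 start sites: Sp1 boxes for Scap, and NF-Y and Sp1 boxes and the Snail-family E-box for Insig2. RefSeq promoter windows, from 250 bases before to 50 after a start site, were matched for 23 of the 28 genes. An NF-Y box lay in a window of 22 of the 23 genes (95.7%), against 42.3% of 17492 protein-coding genes with a window. The Sp1 box lay in 20 (87.0%, against 49.2%) and the strict sterol element in 2, Hmgcs1 and Stard3 (8.70%, against 1.41%). The Snail-family E-box lay in 5, Pmvk, Lss, Msmo1, Srebf2 and Insig2 (21.7%, against 22.1%). These are matches of letters within short windows, not measured binding.

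Among the mevalonate enzymes, Mvk and Fdps show the pattern of the arrays most plainly. Mvk, mevalonate kinase, had log2 values of 5.25, 5.29 and 5.54 in Con and 5.62, 7.15 and 6.36 in HKO, listed in order of replicates 1, 2 and 3 here and below. The groups do not overlap, although HKO replicate 1 clears the highest Con array only narrowly. Its log2 difference was 1.01 ± 0.33 (moderated SE, 3 arrays per group), 2.02-fold, with an unadjusted p of 0.0145 and an adjusted p of 0.296. Fdps, which makes farnesyl diphosphate at the branch to sterols and prenyl groups, stood at 6.78, 6.69 and 7.36 in Con and 6.57, 8.43 and 7.53 in HKO. HKO replicate 1 was the lowest of the 6 arrays and HKO replicate 2 the highest, so the mean difference of 0.57 had a 95% interval from -0.38 to 1.52.

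Hmgcs1, the cytosolic HMG-CoA synthase that opens the route and whose promoter carries the sterol element shown above, had values of 9.21, 9.19 and 9.50 in Con and 9.14, 10.49 and 9.75 in HKO. Its HKO replicate 1 again lay below every Con array. Pmvk, the next kinase after Mvk, read 6.23, 6.30 and 6.53 in Con and 6.07, 7.51 and 6.78 in HKO. Mvd, the decarboxylase that yields isopentenyl diphosphate, read 5.48, 5.29 and 5.66 in Con and 5.26, 6.64 and 5.69 in HKO. The mean differences of these 3 genes were 0.49, 0.43 and 0.39, and without HKO replicate 2 they were 0.14, 0.07 and 0.00242. Ggps1, which makes geranylgeranyl diphosphate for protein prenylation and lies off the sterol route, stayed between 5.87 and 6.18 on all 6 arrays (difference 0.04, 95% interval -0.23 to 0.31).

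The 11 enzymes from squalene to cholesterol had a median difference of 0.75. At an unadjusted p under 0.05, 7 of them were higher, where 5.31% of all genes were. Sqle, squalene epoxidase, a rate-limiting oxygen-dependent step, had the largest mean difference among the 28 genes and the largest spread. Its values were 5.19, 5.58 and 6.55 in Con and 5.91, 8.39 and 7.09 in HKO. The difference was 1.36 ± 0.58 (2.56-fold, unadjusted p = 0.0474, adjusted p = 0.417), and it was 0.73 without HKO replicate 2 and 1.97 without HKO replicate 1. Con replicate 3 exceeded HKO replicate 1, so the groups overlap.

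Tm7sf2, a sterol C14 reductase, was the enzyme with the lowest p. It stood at 6.93, 6.91 and 7.17 in Con and 7.40, 8.52 and 7.97 in HKO, a difference of 0.96 ± 0.25 (1.95-fold, adjusted p = 0.215). All 3 HKO arrays were above all 3 Con arrays. Cyp51, the lanosterol demethylase, read 6.96, 6.99 and 7.46 in Con and 7.18, 8.92 and 8.28 in HKO (difference 0.99 ± 0.38). Msmo1, the methylsterol oxidase that follows, read 7.03, 7.10 and 7.48 in Con and 7.40, 8.72 and 8.10 in HKO (0.87 ± 0.30). In both, the Con range held HKO replicate 1 and was exceeded by HKO replicates 2 and 3.

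Fdft1, squalene synthase, the first committed sterol step, had values of 8.52, 8.58 and 9.14 in Con and 9.04, 10.08 and 9.48 in HKO (difference 0.79 ± 0.27, unadjusted p = 0.0179). Hsd17b7, the 3-ketosteroid reductase of the C4 demethylation complex, read 7.16, 7.25 and 7.69 in Con and 7.67, 8.61 and 8.07 in HKO (0.75 ± 0.24, unadjusted p = 0.0135). HKO replicate 1 lay just under Con replicate 3 for both genes. Lss, which closes the ring to form lanosterol, stood at 6.49, 6.54 and 7.11 in Con and 6.52, 8.24 and 7.18 in HKO. Nsdhl, the C4 decarboxylating dehydrogenase, stood at 8.31, 8.47 and 8.82 in Con, and at 8.29 and 9.35 in HKO replicates 1 and 3, while HKO replicate 2 exceeded the Con mean by 1.465. Their differences of 0.60 and 0.68 were 0.14 and 0.29 without HKO replicate 2.

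The later steps differed in size and spread. Ebp, the sterol isomerase, had a small and even difference: 8.08, 8.01 and 8.19 in Con against 8.29, 8.43 and 8.28 in HKO (0.24 ± 0.10, unadjusted p = 0.0484), with no overlap between groups. Sc5d, the lathosterol desaturase, ranged from 9.95 to 10.21 over the 6 arrays, with a difference of 0.00324 and a 95% interval from -0.26 to 0.26. Dhcr7, the reductase of 7-dehydrocholesterol, ranged from 7.31 to 7.67 in Con and from 7.30 to 8.48 in HKO, with HKO replicate 2 highest (0.42, 95% interval -0.19 to 1.03).

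**Figure D2:**
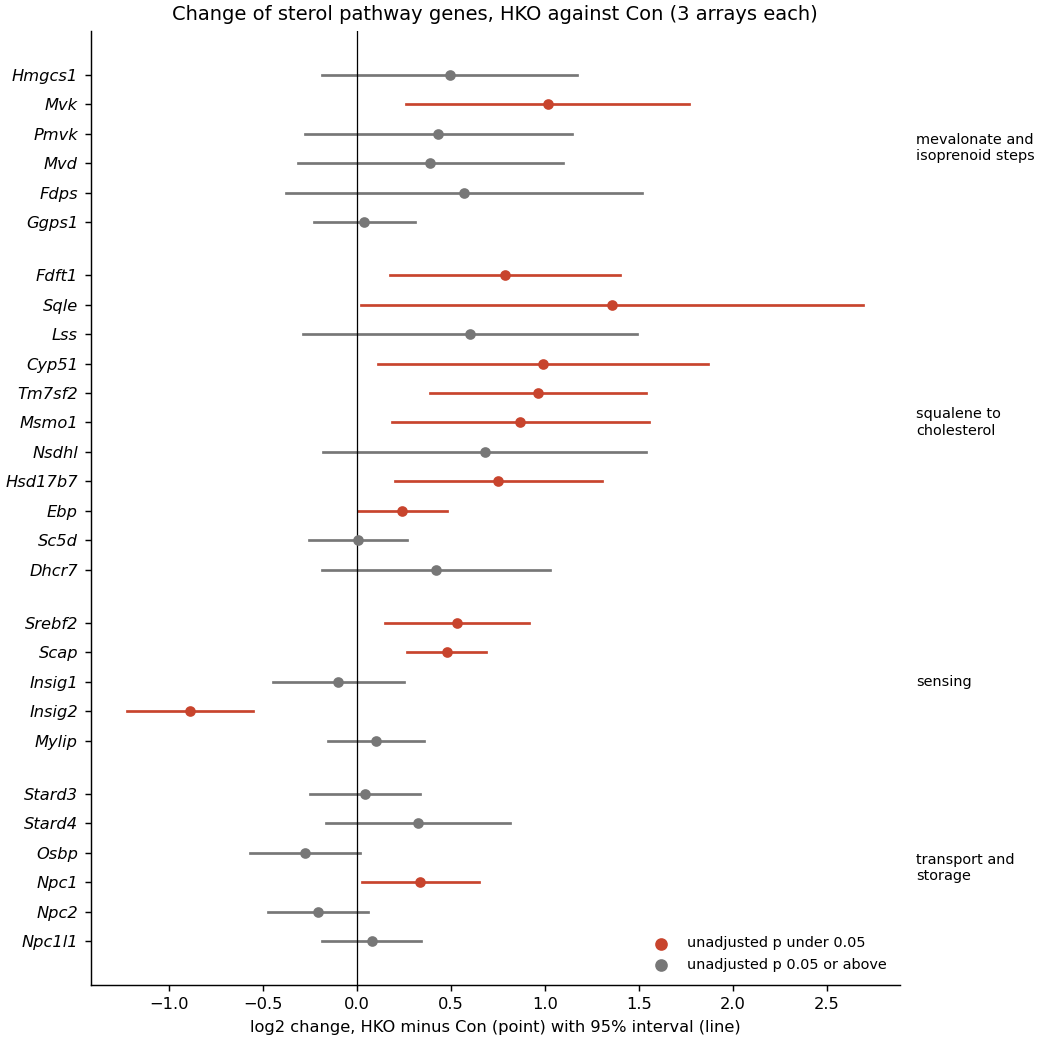
Points give the log2 difference HKO minus Con of each gene and lines its 95% interval from limma, with 3 arrays per group; red marks an unadjusted p under 0.05. The interval of Sqle is the widest, from 0.02 to 2.69, those of Ebp, Sc5d and Ggps1 are narrow, and those of Scap and Insig2 lie clear of 0 on opposite sides.

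The enzymes differed between mice of the same genotype more than most genes did. The SD over the 3 HKO arrays exceeded 0.5 in 13 of the 17 enzymes, where 2.01% of all genes and 1.91% of the 11090 genes above the median level did so. Fdft1 (SD 0.52) lay just inside this bound and Hsd17b7 (SD 0.47) just outside it. Over the Con arrays the SD exceeded 0.5 in 1 enzyme, Sqle, where 1.52% of all genes did. The HKO spread exceeded the Con spread in 16 of the 17 enzymes, where it did in 54.1% of all genes. The median SD of the 17 enzymes was 0.68 in HKO and 0.19 in Con, beside 0.15 and 0.14 over all genes. In the 13 enzymes HKO replicate 2 exceeded HKO replicate 1 by 1.04 to 2.48 on the log2 scale, which is 2.06-fold to 5.57-fold between mice of the same genotype and diet. These 13 were picked by their spread, a bound set after the values were seen, so a wide gap follows from the choice; in the other 4 enzymes the gap was 0.07 to 0.94, or 1.05-fold to 1.92-fold.

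**Figure D3:**
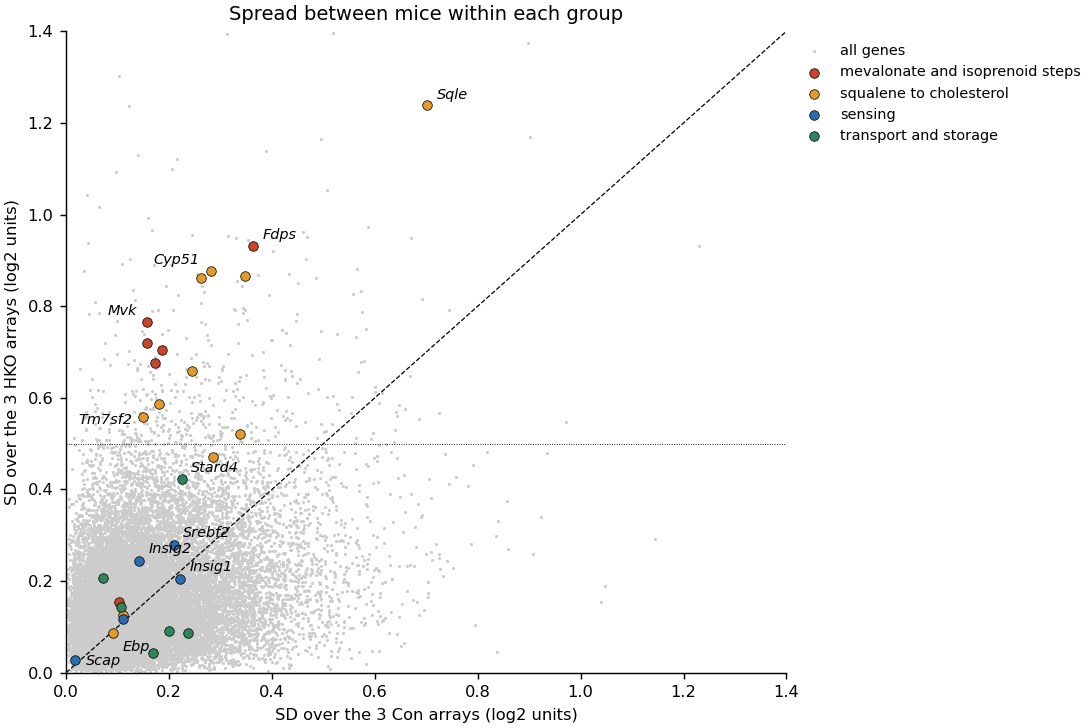
Each point is a gene, placed by its SD over the 3 Con arrays (x axis) and over the 3 HKO arrays (y axis), both in log2 units; the dashed line marks equal spread and the dotted line an SD of 0.5, and 8 genes lie beyond the axes. Of the 28 sterol genes, 13 enzymes lie above the dotted line, up to Sqle at 1.24, while Scap lies next to the origin.

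The order of the mice was shared among enzymes. HKO replicate 2 was above replicate 3, and replicate 3 above replicate 1, in 15 of the 17 enzymes, where 15.5% of all genes had that order. So it was in 4 of the 5 sensing genes (Srebf2, Scap, Insig2 and Mylip), over HKO ranges from 0.06 (Scap) to 0.56 (Srebf2). HKO replicate 2 was the highest of all 6 arrays in 15 enzymes (15.6% of all genes), with Ggps1 and Sc5d the other two. Among the Con mice, replicate 3 was highest in 16 enzymes (34.3% of all genes), at a mean of 0.27 above the Con mean. HKO replicate 1 exceeded every Con array in 3 enzymes (Mvk, Tm7sf2 and Ebp), where 28% of all genes had it there, and lay inside the Con range in 7 and below every Con array in 7. HKO replicate 3 lay above every Con array in 16 enzymes, Sc5d being the exception, and in 26.9% of all genes. The hepatocyte marker list stood 0.16, 0.09 and 0.06 above the Con mean in HKO replicates 1, 2 and 3, so it did not follow the order of the enzymes. The order was not confined to sterol genes, however. Fatty acid genes driven by SREBP1, described below, had it in their list means (-0.65, -0.41 and -0.52) and in 5 of 9 genes. Lipid-associated macrophage markers had it in their list means (-0.87, -0.50 and -0.56) and in 2 of 7 genes.

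Other genes of the route, from lists set up by name, followed the enzymes in part. Of 10 further enzymes and SREBP2 targets 5 were measured. Among them 0 had an unadjusted p under 0.05, where 11.9% of all genes did, and their median difference was -0.05. Rdh11, a retinol dehydrogenase and SREBP target, read 6.14, 6.30 and 6.80 in Con and 6.42, 7.98 and 7.05 in HKO (0.74 ± 0.36), and Tmem97, a sterol-regulated membrane protein, read 7.54, 7.52 and 7.80 in Con and 7.44, 8.38 and 8.07 in HKO (0.35 ± 0.22). Both had the HKO order of the enzymes, as did 3 of the 5 measured in all (15.5% of all genes). Genes of isoprenoid use had that order in 1 of the 11 measured. At an unadjusted p under 0.05, 1 of the 11 was lower and 0 higher, against 6.56% and 5.31% of all genes. Their median was -0.11. The lowest p in that list belonged to Nus1 (-0.23 ± 0.10), a subunit of the dolichol-making prenyltransferase, followed by Rabggta (0.22 ± 0.10), a subunit of the Rab prenylating enzyme.

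Of 11 genes of LXR signalling and sterol efflux 10 were measured. At an unadjusted p under 0.05, 3 were higher and 2 lower, against 5.31% and 6.56% of all genes. Cyp7a1, the rate-limiting enzyme that turns cholesterol into bile acids, stood at 8.20, 8.10 and 7.32 in Con and 9.17, 9.29 and 9.33 in HKO (1.39 ± 0.22, adjusted p = 0.0649). The SD over its 3 HKO arrays was 0.09. Scarb1, the receptor for HDL cholesterol, was higher by 0.30 ± 0.10. The fatty acid genes driven by the related factor SREBP1 lay on the other side. At an unadjusted p under 0.05, 9 of 9 were lower, where 6.56% of all genes were. None passed the adjusted threshold, where 0.113% of all genes were lower. Their median was -0.50, with Fasn (-0.84 ± 0.14) and Acaca (-0.41 ± 0.10) at the lowest p. In HKO replicates 1, 2 and 3 this list stood -0.65, -0.41 and -0.52 from the Con mean, the same order of mice as for the enzymes. It was below Con in the mouse with the highest sterol enzymes as well.

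**Figure D4:**
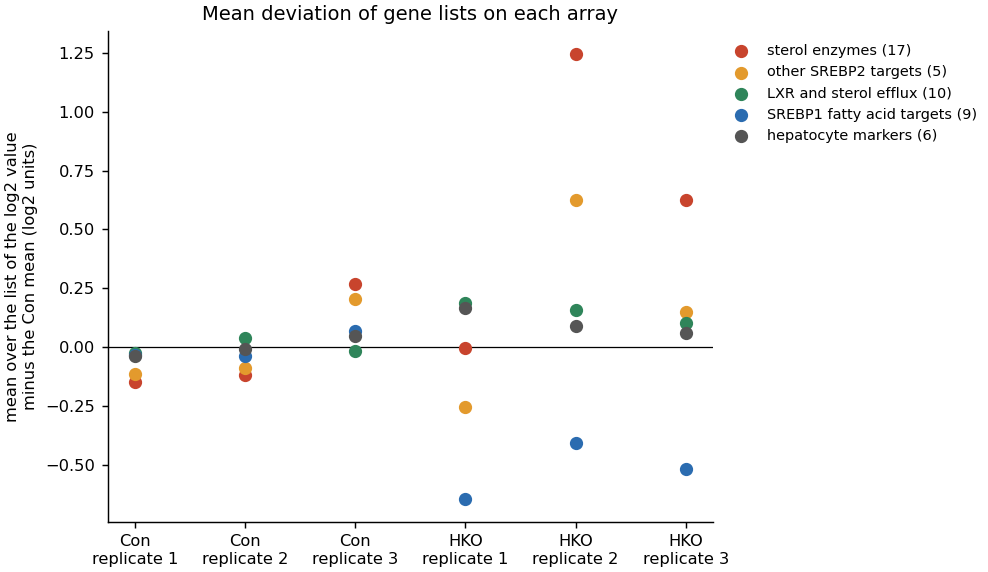
For each array (x axis), points give the mean over a gene list of the log2 value minus the Con mean (y axis, log2 units), with the number of measured genes in the key. The sterol enzymes reach 1.25 in HKO replicate 2 and stay at the Con level in HKO replicate 1, while the SREBP1 targets are below 0 in all 3 HKO arrays and hepatocyte markers stay near 0.

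Among the sensing genes, Scap had values of 7.06, 7.03 and 7.06 in Con and 7.50, 7.55 and 7.53 in HKO. The groups are separated by a gap far wider than the spread within either, with SDs of 0.02 and 0.03. The difference was 0.48 ± 0.09 (1.39-fold, unadjusted p = 0.000777, adjusted p = 0.113). A second, dim Scap probe set (mean level 2.69) differed by 0.05, and with both averaged the difference was 0.26 (adjusted p = 0.359). Over the alternative analyses the adjusted p of Scap ran from 0.0167 with a variance trend to 0.359.

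Insig2, which retains SCAP in the endoplasmic reticulum and whose liver transcript is lowered by insulin and feeding, was the only gene of the 28 lower at an unadjusted p under 0.05. It stood at 9.15, 9.09 and 8.88 in Con and 7.92, 8.41 and 8.12 in HKO. Every HKO array lay below every Con array. The difference of -0.89 ± 0.15 (1.85-fold lower, unadjusted p = 0.000266) had an adjusted p of 0.0763, the lowest of the 28 genes, and it passed with a variance trend (0.00835) and among genes above the median level (0.0354). Scap passed in the same 2 alternatives, at 0.0167 and 0.0385. Over the alternatives the adjusted p of Insig2 reached 0.255, without Con replicate 2.

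Srebf2, the transcription factor itself, read 6.90, 7.04 and 7.31 in Con and 7.35, 7.91 and 7.58 in HKO. No HKO array fell below a Con array, though HKO replicate 1 and Con replicate 3 were close. The difference was 0.53 ± 0.17 (1.45-fold, unadjusted p = 0.0128, adjusted p = 0.290), and its arrays kept the order of the enzymes, in Con and in HKO, over a smaller range. Insig1, the INSIG whose gene is itself an SREBP target, did not keep it: it stood at 9.85, 9.86 and 10.24 in Con and 9.93, 10.05 and 9.65 in HKO. The groups overlap, and the difference of -0.10 had a 95% interval from -0.45 to 0.25. Mylip, the ubiquitin ligase that degrades the LDL receptor, ranged from 6.94 to 7.25 over all arrays (difference 0.10, 95% interval -0.16 to 0.36).

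**Figure D5:**
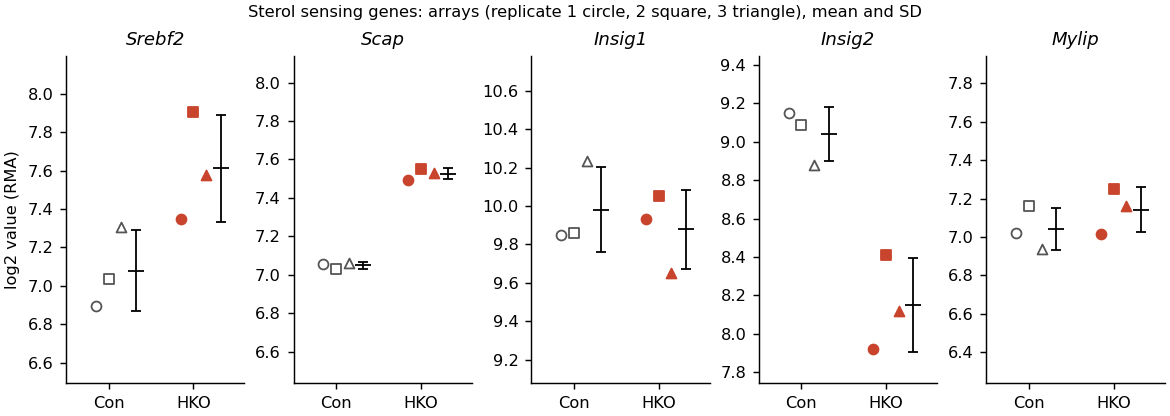
Log2 values of the 5 sensing genes on each array, with symbols for replicate 1 (circle), 2 (square) and 3 (triangle) and bars for the group mean and SD; every panel spans an equal range of log2 units. Scap and Insig2 separate the groups in opposite directions, Srebf2 separates them narrowly, and Insig1 and Mylip overlap.

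Genes of sterol transport differed little, with a median of 0.06 over the 6 measured. The storage genes Soat1 and Soat2 were not analysed. Npc1, which exports cholesterol from lysosomes, read 8.19, 8.11 and 8.55 in Con and 8.53, 8.62 and 8.70 in HKO (0.34 ± 0.14, unadjusted p = 0.0380, adjusted p = 0.394), and Con replicate 3 overlapped HKO replicate 1. Its second, dim probe set (mean level 2.81) differed by 0.34. Npc2, the soluble partner that hands cholesterol to NPC1, ranged from 6.60 to 6.79 in Con and from 6.35 to 6.60 in HKO, a difference of -0.21 (95% interval -0.47 to 0.06), with the nearest arrays of the groups all but equal. Both genes are also expressed by macrophages; the part of the lower lipid-associated macrophage markers in the Npc2 values was not tested, and in bulk liver fewer cells of a type and less RNA per cell cannot be told apart. Kupffer cell markers had list means of 6.74 to 7.16 in Con and 6.75 to 6.97 in HKO.

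Stard4, a sterol carrier of the cytosol under SREBP2 control, was at 6.55 to 6.95 in Con and 6.76 to 7.50 in HKO, with HKO replicate 2 standing alone above the other arrays (difference 0.32, 95% interval -0.17 to 0.81). Osbp, an oxysterol binding protein that exchanges lipids between membranes, was at 7.78 to 7.91 in Con and 7.40 to 7.78 in HKO (-0.28, 95% interval -0.57 to 0.01). Stard3, a sterol carrier of late endosomes, was at 4.77 to 5.17 in Con and 4.90 to 5.07 in HKO. Npc1l1, the sterol uptake transporter of the intestinal brush border, read 3.48, 3.22 and 3.53 in Con and 3.44, 3.50 and 3.52 in HKO, below the median over genes on every array, so that it is not shown to be above background. Genes of SREBP cleavage and of INSIG or reductase turnover were also close to 0. Of 7 measured, 1 was lower and 0 higher at an unadjusted p under 0.05, against 6.56% and 5.31% of all genes. The lower gene was Rnf145 (-0.37 ± 0.11), a sterol-responsive ubiquitin ligase acting on SCAP. The next lowest p belonged to the SREBP-cutting protease gene Mbtps1 (-0.16 ± 0.12).

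Counted without a test, the HKO and Con arrays did not overlap in 7 of the 28 genes, where 18.2% of all genes did not. These were 5 genes that were higher in HKO (Mvk, Tm7sf2, Ebp, Srebf2 and Scap) and 2 that were lower (Insig2 and Npc2), where 8.05% and 10.1% of all genes separated in these directions; with fewer arrays to overlap, the count was 14 without Con replicate 3, where 29.5% of all genes separated, and 21 without HKO replicate 1, where 30.1% did. Leaving out HKO replicate 2 lowered the mean difference of 16 of the 17 enzymes, all but Ggps1, to 0.73 for Sqle, 0.63 for Mvk, 0.68 for Tm7sf2 and 0.59 for Cyp51. Of the 28 genes, 6 had an unadjusted p under 0.05 when Con replicate 1 or Con replicate 2 was left out, where 9.20% and 9.01% of all genes did. Dropping HKO replicate 3 left 7 such genes (10.6% of all genes), dropping HKO replicate 2 left 8 (10.5%), and dropping HKO replicate 1 gave 18 (11.6%). With 3 arrays against 3, the number of arrays limits what these comparisons can show.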

How the data were processed

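Each array measured liver RNA of 1 mouse, from 400 ng of total RNA per the labels' protocols. The values deposited by the authors are on the log2 scale. The submitters' processing notes name RMA and R 3.3.0. RMA corrects background, makes the arrays' distributions equal and summarises probes, so differences are relative to the whole array and those of dim genes are compressed. The sources used here name no filter and no genome build for the array. The platform table names 1 gene for 23521 of 41345 probe sets, several for 1814 and none for 16010. Taking the highest mean per gene left 22180 genes. Entrez identifiers of 23328 matched RefSeq (GRCm38.p6), with 0 symbols changed.

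HKO was compared with Con in limma 3.58.1 (R 4.3.3, lmFit and eBayes, group as the only term, two-sided, Benjamini-Hochberg over 22180 genes, threshold 0.05). The fit was tried on simulated arrays with independent noise and changes larger than any of the sterol genes. That trial does not cover smaller changes or variation shared among genes. Intervals are limma's moderated 95% intervals. Replicates are separate mice. The members and gene lists were chosen with earlier results of these data known; the SD bound of 0.5, the overlap count and the per-array enzyme means were added after seeing values. Values by array are given for genes with an unadjusted p under 0.05, for the 8 with the largest HKO spread and for 7 measured genes fixed by name, and the lowest 2 p-values per further list are named; beyond these, genes are given by range. Promoter windows come from RefSeq (GRCm38.p6). Plots used matplotlib 3.10.9 (Python 3.11.15).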

Additional observations from a re-analysis of the deposited data

How the results depend on the processing

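The fit was repeated with arrays centred or quantile-normalized again, with genes above the median level only (27 of the 28 sterol genes), with probe sets averaged or tested singly, with a variance trend, robust eBayes or array weights, with a replicate block, and without each array. The count of genes past adjusted p 0.05, 45, became 138 among genes above the median level, 215 with a variance trend and 3 with the replicate block, and 4 to 32 without 1 array. Of the 28 sterol genes 2 passed (Scap and Insig2) among genes above the median level and with a variance trend, and 0 in the others. Those at an unadjusted p under 0.05, 12, numbered 6 to 18 without 1 array. The median difference of the 28 genes ran from 0.41 to 0.47 under the other alternatives and from 0.14 to 0.68 without 1 array. Genes with no overlap between groups, 7, numbered 6 to 8 under the other alternatives and 7 to 21 without 1 array. Fewer arrays make a gap likelier: without 1 array, the groups did not overlap in 27.2% to 30.1% of all genes. Snai2 had an adjusted p of 0.0540 with the replicate block (-2.43) and a change from -2.69 to -2.15 without 1 array. Without 1 array, the sign turned for Sc5d (-0.051 to 0.072), Ggps1 (-0.048 to 0.10), Insig1 (-0.19 to 0.026), Stard3 (-0.059 to 0.14) and Npc1l1 (-0.020 to 0.14); of the 28 genes these 5 did so, and none under the other alternatives. The cause of these changes was not tested. With the block, the counts among the sterol genes stayed the same (0 past the threshold, 12 at an unadjusted p under 0.05). The 12 were not all the same genes: Ebp left (limma unadjusted p = 0.0847) and Nsdhl entered (0.0479). Same-numbered arrays shared little of their deviations from the group means (correlations 0.032, 0.016 and 0.021), so the numbers were not taken to pair mice. By these deviations 3 of 3 HKO arrays correlated best with the Con array of their own number, a hint from the data and not the design. No detection calls were used, so signal near background limits dim genes such as Npc1l1, and 3 mice per group limit all comparisons.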
